A study of Mus musculus with 12 samples.

Results

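Matrix metalloproteinases are zinc-dependent enzymes that cut the collagens, proteoglycans and adhesive proteins of the extracellular matrix, and tissue inhibitors of metalloproteinases (TIMPs) bind their active sites. In cartilage the collagenase MMP13 cleaves type II collagen and the stromelysins degrade proteoglycans and activate other proteases, so the levels of enzymes and inhibitors are usually read side by side. The 10 genes described here were chosen by name: the proteases *Mmp2*, *Mmp3*, *Mmp9*, *Mmp10*, *Mmp13*, *Mmp14* and *Mmp19* and the inhibitors *Timp1*, *Timp2* and *Timp3*. They are 10 of 46731 genes in the table, which holds 17 other *Mmp* and *Timp* genes. Most proteases are secreted as inactive precursors, so that the RNA measured here is a level of message and not of activity.

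The cells were ATDC5, a chondrogenic mouse line that the labels describe as teratocarcinoma cells. All of them carried a stably integrated lentiviral hairpin cassette with puromycin selection. shRNA-NC cells (genotype label wildtype) held the control cassette, and shRNA-*Ddx5* cells (DDX5 knockdown) held a single hairpin sequence against the RNA helicase gene *Ddx5*, so that an effect of that hairpin and of the loss of *Ddx5* cannot be told apart. Each kind of cell was sampled at 6 h, without stimulation or with cytokines (IL-1β at 5 ng/ml together with TNF-α at 25 ng/ml), with 3 replicates in each of 4 groups. The cells are 1 established line, and RNA was measured in bulk, where fewer cells of a type and less RNA per cell cannot be told apart.

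Values are FPKM, fragments scaled by gene length and library depth, which allow levels of genes to be compared per length. Each library held 14119199 to 19276520 fragments on genes. A gene was tested where its FPKM was at least 1 in at least 3 libraries, which left 12368 genes and 8 of the 10 members, and a difference was called at an adjusted p under 0.05 (limma on log2(FPKM + 1) over all genes tested, with Benjamini-Hochberg adjustment). *Mmp3* passed that filter only through the libraries with cytokines, and *Mmp13* only with the shRNA-*Ddx5* libraries among them. *Mmp19* passed it only through the shRNA-*Ddx5* libraries, and *Mmp9* and *Mmp10* did not pass it. The knockdown calls of *Mmp13* with cytokines and of *Mmp19* were also reached in a fit without a filter. *Ddx5* itself was at 294 to 337 FPKM in shRNA-NC and 90.7 to 118 FPKM in shRNA-*Ddx5* medium libraries, and at 301 to 327 and 93.6 to 104 FPKM with cytokines. Of 10 chondrocyte markers, 2 had a mean of at least 1 FPKM in each of the 4 groups. *Sox9* was 1 of them in all 4. The other was *Col2a1* in shRNA-NC cells, with means of 12.4 FPKM in medium and 6.33 FPKM with cytokines. In shRNA-*Ddx5* cells it was *Col11a1*, at 4.78 and 3.04 FPKM, with *Col2a1* at 0.899 and 0.779 FPKM. *Acan* was at or under 0.0325 FPKM in every library. Few of these markers thus reached a mean of 1 FPKM in this chondrogenic line.

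Replicate 2 of shRNA-NC with cytokines was the highest of its group for all 10 members. It was at 1.06 times the mean of replicates 1 and 3 for *Mmp14*, 7.80 times for *Mmp3* and 9.63 times for *Mmp13*. The share of all genes highest in that library was not counted. Over all genes tested it correlated with replicate 3 at 0.992 (Pearson r of log2(FPKM + 1)). Replicate 1 was the least alike, at 0.981 with replicate 2 and 0.984 with replicate 3. The *Ddx5* level of replicate 2, 302 FPKM, lay between those of the other 2 libraries. Results that rest on this library are given with and without it.

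Of the 27 *Mmp* and *Timp* genes in the table, 10 lie within 427 kb of chromosome 9 (GRCm39, 7272514 to 7699586), among them *Mmp13* (7272514 to 7283333), *Mmp3* (7445822 to 7455975) and *Mmp10* (7502343 to 7510243), all on the plus strand. The other members are spread over the genome: *Timp1* on chromosome X (20736405 to 20740976, plus), *Timp2* on 11 (118191887 to 118246237, minus), *Timp3* on 10 (86136276 to 86185369, plus), *Mmp19* also on 10 (128626779 to 128636696, plus), *Mmp2* on 8 (93553920 to 93580049, plus), *Mmp9* on 2 (164782246 to 164797770, plus) and *Mmp14* on 14 (54669055 to 54679913, plus). The promoters of these 3 proteases are shown because their RNA was at or near 0 in medium and higher with cytokines, and those of *Timp3* and *Timp1* because these inhibitors moved in opposite directions with cytokines. Each line gives the 150 bases before the start of the gene, from RefSeq windows (GRCm38.p6) that each matched a single place on the GRCm39 chromosome, where the start coincided with that of the deposited table. Capitals mark AP-1 (TGACTCA) and TATA box (TATAAA) matches on either strand.
Mmp13, chr9:7272364-7272513, plus strand: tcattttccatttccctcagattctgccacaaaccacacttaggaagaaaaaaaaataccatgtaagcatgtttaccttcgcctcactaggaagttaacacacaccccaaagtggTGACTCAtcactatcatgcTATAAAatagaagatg
Mmp3, chr9:7445672-7445821, plus strand: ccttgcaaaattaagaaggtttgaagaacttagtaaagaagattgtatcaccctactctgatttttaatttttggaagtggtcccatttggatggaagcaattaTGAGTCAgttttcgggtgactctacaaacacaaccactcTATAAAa
Mmp10, chr9:7502193-7502342, plus strand: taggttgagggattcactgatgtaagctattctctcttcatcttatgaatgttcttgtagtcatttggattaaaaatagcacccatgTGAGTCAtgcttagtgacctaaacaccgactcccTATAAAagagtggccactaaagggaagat
Timp3, chr10:86136126-86136275, plus strand: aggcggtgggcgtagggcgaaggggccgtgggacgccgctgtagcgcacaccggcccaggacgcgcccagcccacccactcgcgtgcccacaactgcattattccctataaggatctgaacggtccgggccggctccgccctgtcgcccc
Timp1, chrX:20736255-20736404, plus strand: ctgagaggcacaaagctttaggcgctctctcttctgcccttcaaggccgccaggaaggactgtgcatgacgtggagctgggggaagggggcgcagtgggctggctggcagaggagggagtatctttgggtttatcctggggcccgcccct

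AP-1 is the name for dimers of Fos and Jun proteins, and its site is well known in promoters of inducible metalloproteinases. In windows of 250 bases before to 50 after the start, *Mmp13*, *Mmp3* and *Mmp10* each held 1 AP-1 match, beginning 35, 46 and 63 bases before the start, and 1 TATA box match. Of all 32851 promoters in the RefSeq table, 5.2% held the AP-1 letters, 13.6% the TATA letters and 0.941% both. The windows of *Mmp14*, *Timp1*, *Timp2* and *Timp3* held neither, and each held at least 1 match to the Sp1 letters GGGCGG, present in 35.7% of promoters. The PEA3 letters AGGAAG (35.4% of promoters) occurred 2 times in *Mmp13*, 1 time in *Mmp3*, *Mmp14* and *Timp3*, 3 times in *Timp1* and not in *Mmp10* or *Timp2*, and the Runx letters TGTGGTT (5.27%) occurred 1 time, in *Mmp13*. No match overlapped another. The table matched 7 of the 10 members. *Mmp2*, *Mmp9* and *Mmp19* had no entry. A match of letters is a description of the sequence and not a site of binding.

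The members ranged from no fragment to 619 FPKM, as the plot of FPKM by library shows. In shRNA-NC cells in medium the order by mean FPKM was *Timp2*, *Timp3*, *Mmp14*, *Timp1*, *Mmp2*, *Mmp19*, *Mmp9*, *Mmp3*, with *Mmp13* and *Mmp10* at 0. Among the first 6 of these, *Timp1* and *Mmp2* were the only neighbours whose libraries overlapped, and *Mmp9* and *Mmp3* overlapped lower down. *Mmp14*, a collagenase anchored in the cell membrane that also activates pro-MMP2, made up 75.7% of the summed FPKM of the 7 proteases in this group, and *Timp2* made up 62.2% of the summed FPKM of the 3 inhibitors.

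**Figure D1:**
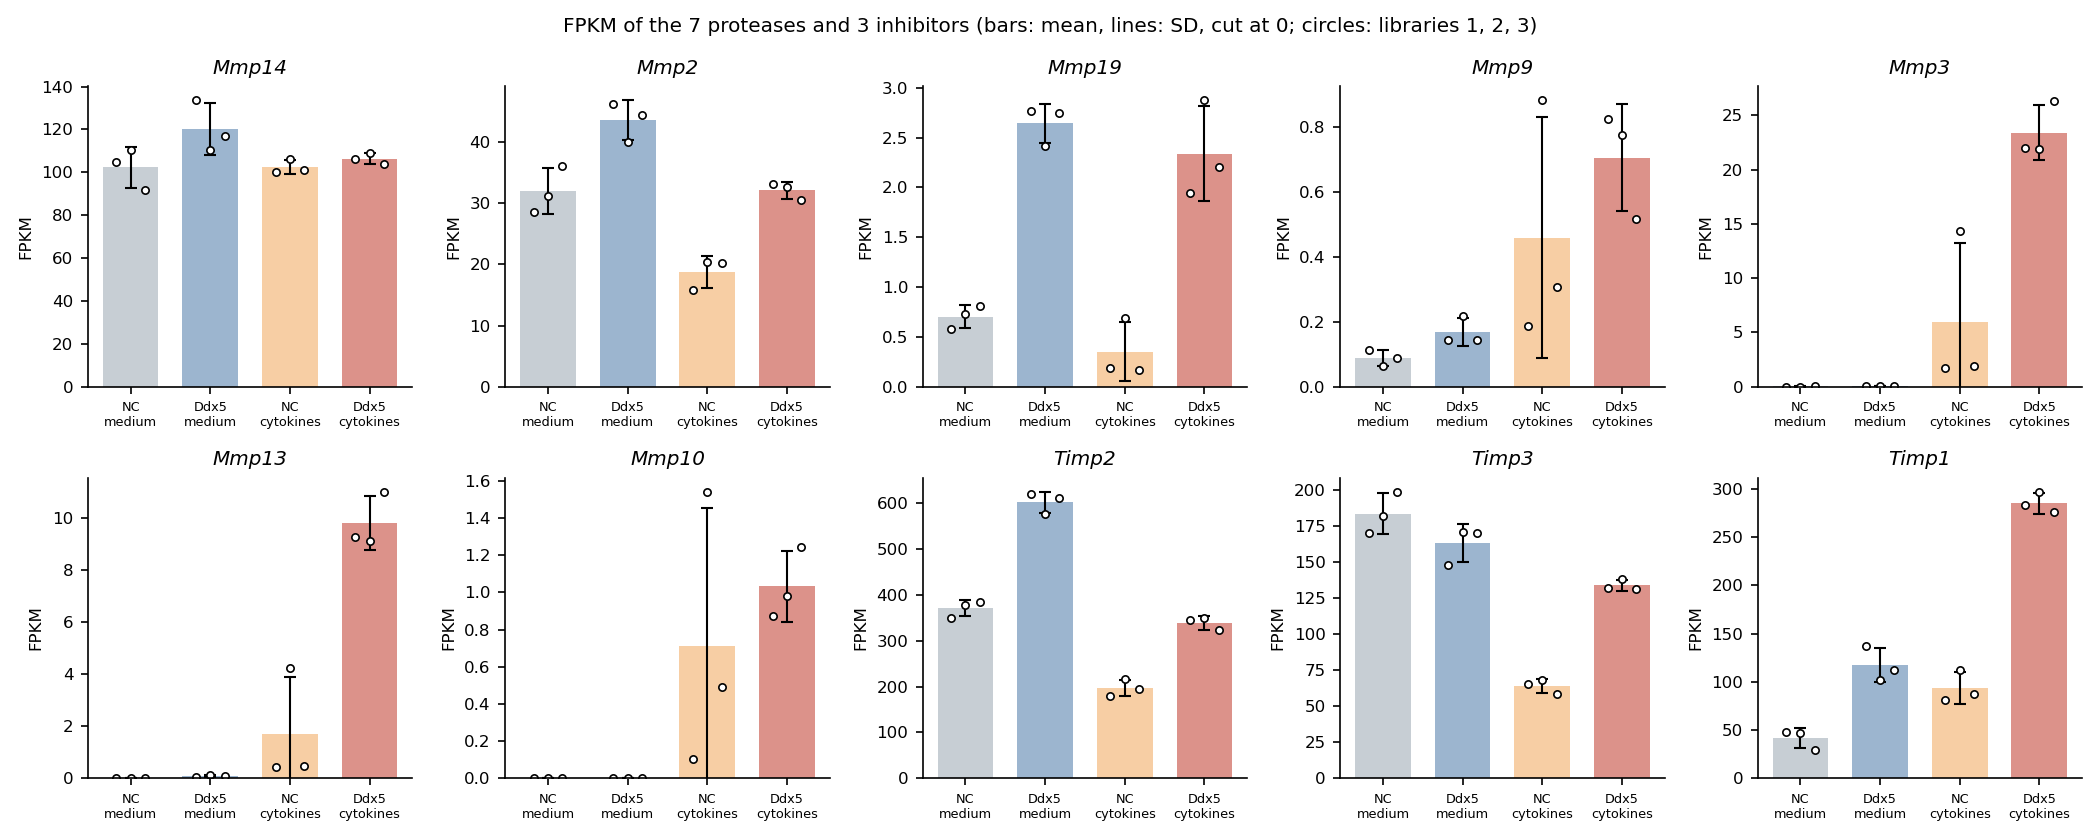
FPKM of each protease and inhibitor (y axis) in the 4 groups (x axis), with bars for the mean of 3 libraries, lines for the SD (cut at 0) and circles for single libraries. *Timp2*, *Timp1* and *Mmp2* are higher in every shRNA-*Ddx5* library than in the shRNA-NC libraries of the same condition, *Mmp14* lies between 91.6 and 134 FPKM throughout, and *Mmp3*, *Mmp13* and *Mmp10* lie at or near 0 without cytokines.

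*Mmp14* stayed in a narrow range. Its FPKM was 105.03, 110.3 and 91.6 in the shRNA-NC and 134, 110.4 and 117 in the shRNA-*Ddx5* medium libraries, and with cytokines 100.4, 106 and 101 in shRNA-NC and 106, 109 and 104 in shRNA-*Ddx5*. None of the 4 contrasts passed the threshold in the reported fit, though some did under other settings: lower with cytokines after quantile scaling (-0.25 in shRNA-NC and -0.34 in shRNA-*Ddx5* cells, adjusted p = 0.0339 and 0.00818, limma), and higher with the knockdown in medium without replicate 2 of shRNA-NC or of shRNA-*Ddx5* in medium (adjusted p = 0.0451 and 0.0330, limma). The log2 difference nearest to it was the knockdown in medium, at 0.23 (95% interval 0.03 to 0.43, adjusted p = 0.0575, limma), and with cytokines the knockdown difference was 0.05 (-0.15 to 0.25).

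*Mmp2* encodes gelatinase A, which MMP14 activates on the cell surface in a complex with TIMP2. In medium its FPKM was 28.6, 31.1 and 36.0 in shRNA-NC and 46.2, 39.9 and 44.4 in shRNA-*Ddx5* cells. Under cytokines the values were 15.7, 20.3 and 20.3 in shRNA-NC and 33.1, 32.7 and 30.4 in shRNA-*Ddx5* cells. Each pair of groups compared was free of overlap: the gene was lower with cytokines in each kind of cell and higher with the knockdown in each medium. The mean with cytokines was 58.9% of that in medium in shRNA-NC (log2 difference -0.74, standard error 0.11, adjusted p = 0.00053, limma) and 73.7% in shRNA-*Ddx5* cells (-0.43, adjusted p = 0.0162, limma). The knockdown mean was 1.37 times that of the control in medium (0.44, adjusted p = 0.00797, limma; lost after quantile scaling, at 0.27 and 0.0825) and 1.71 times with cytokines (0.75, adjusted p = 0.00030, limma). The call with cytokines in shRNA-*Ddx5* cells was lost without replicate 3 of shRNA-*Ddx5* in medium (adjusted p = 0.0575, limma) or without replicate 3 of shRNA-*Ddx5* with cytokines (0.0629).

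The 3 components of that surface complex did not keep the same proportion. *Timp2* FPKM was 3.65 ± 0.473 (SD, n = 3) times that of *Mmp14* in shRNA-NC and 5.02 ± 0.336 times in shRNA-*Ddx5* cells in medium, and 1.92 ± 0.118 and 3.18 ± 0.0731 times with cytokines. The 3 shRNA-NC libraries with cytokines, at 1.80 to 2.03, lay below the other 9, at 3.10 to 5.22. The *Mmp2* to *Mmp14* ratio ran from 0.157 to 0.200 in those 3 libraries and from 0.272 to 0.392 in the other 9.

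*Mmp19*, a secreted protease of basement membrane and cartilage proteins, was low, and it was higher in shRNA-*Ddx5* cells. Its FPKM was 0.576, 0.727 and 0.809 in shRNA-NC and 2.76, 2.42 and 2.74 in shRNA-*Ddx5* cells in medium. After cytokines they were 0.191, 0.695 and 0.169 in shRNA-NC and 1.94, 2.87 and 2.21 in shRNA-*Ddx5* cells. Every shRNA-*Ddx5* library was above every shRNA-NC library, and the gene passed the filter only through the shRNA-*Ddx5* libraries. The knockdown mean was 3.75 times the control in medium (log2 difference 1.10, standard error 0.15, adjusted p = 0.000163, limma) and 6.66 times with cytokines (1.32, adjusted p = 4.4e-05, limma), or 13.0 times without replicate 2 of shRNA-NC with cytokines. The fall with cytokines in shRNA-NC cells did not pass (-0.35, adjusted p = 0.0926, limma) and did so without that replicate (-0.53, adjusted p = 0.0107, limma), with a pseudocount of 0.1 (0.0473) and with voom (0.0375). *Tmem198b*, on the opposite strand and overlapping *Mmp19*, was at 1.96 to 4.41 FPKM, and whether counting used strand is not given in the sources used here.

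*Mmp9*, gelatinase B, is known from neutrophils, macrophages and osteoclasts. It was listed at 0.0645 to 0.114 FPKM in shRNA-NC and 0.143 to 0.218 FPKM in shRNA-*Ddx5* medium libraries, from 5 to 15 fragments each. These groups did not overlap, and their difference did not pass in a fit without a filter (log2 0.10, adjusted p = 0.713, limma). In the presence of cytokines it reached 0.188, 0.881 and 0.307 FPKM in shRNA-NC and 0.824, 0.774 and 0.516 FPKM in shRNA-*Ddx5* cells, so the groups with and without cytokines did not overlap in either kind of cell while the knockdown groups with cytokines did. In a fit without a filter the cytokine difference passed in shRNA-*Ddx5* cells (log2 0.54, adjusted p = 0.0357, limma) but not in shRNA-NC cells (0.39, adjusted p = 0.109, limma), where it passed with a pseudocount of 0.1 (0.0456), with voom (0.0246) and without replicate 1 of shRNA-NC with cytokines (0.0420), and the first was lost without any 1 shRNA-NC or shRNA-*Ddx5* medium library or without replicate 1 or 2 of shRNA-*Ddx5* with cytokines (adjusted p 0.0508 to 0.124). The knockdown difference with cytokines did not pass (0.25, adjusted p = 0.296, limma) unless replicate 2 of shRNA-NC was left out (0.45, adjusted p = 0.00466, limma). Of 6 leukocyte and macrophage markers only *Cd68* had a mean of at least 1 FPKM in any group, *Ptprc* had no fragment in any library, and the 6 summed to 1.29 to 1.79, 1.94 to 2.84, 1.58 to 2.25 and 2.02 to 2.57 FPKM in shRNA-NC and shRNA-*Ddx5* medium and shRNA-NC and shRNA-*Ddx5* cytokine libraries. In that order the *Cd68* means were 1.42, 1.10, 1.76 and 1.40 FPKM, lower with the knockdown. *Lyz2* (0.0518, 0.934, 0.0504 and 0.569 FPKM) and *Csf1r* (0.0887, 0.381, 0.0327 and 0.267 FPKM) were higher with it. *Adgre1* and *Itgam* were at most 0.0190 FPKM in any library.

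*Mmp3*, stromelysin 1, cuts proteoglycans and activates other pro-MMPs. In medium it was at or under 3 fragments in all 6 libraries, at 0.0269, 0.0273 and 0.111 FPKM in shRNA-NC and 0.101, 0.0615 and 0.0924 FPKM in shRNA-*Ddx5* cells, and no difference was detectable at this depth. The cytokine libraries stood at 1.73, 14.3 and 1.95 FPKM in shRNA-NC and 21.99, 21.9 and 26.3 FPKM in shRNA-*Ddx5* cells. Every library with cytokines was above every library without, and the lowest shRNA-*Ddx5* value was above the highest shRNA-NC value.

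The rise of *Mmp3* with cytokines was 109-fold in shRNA-NC cells, from 5 to 602 fragments over the group (95% counting interval of the ratio 52.9 to 384), and 275-fold in shRNA-*Ddx5* cells, from 8 to 2028 fragments (139.97 to 641). Those intervals cover counting error only. On the log2(FPKM + 1) scale, which understates the change of low genes, the differences were 2.24 (standard error 0.49, adjusted p = 0.0050, limma) and 4.49 (adjusted p = 3.9e-05, limma). Without replicate 2 of shRNA-NC with cytokines the first rise was 33.4-fold. The knockdown mean with cytokines was 3.89 times the control (log2 difference 2.29, adjusted p = 0.00299, limma), and 12.7 times without that replicate (3.10, adjusted p = 2.9e-08, limma).

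*Mmp13*, the main collagenase of cartilage and a marker of hypertrophic chondrocytes and osteoblasts, was not detected in shRNA-NC cells in medium, with 0 fragments in each of 3 libraries. In shRNA-*Ddx5* cells in medium it had 3, 6 and 4 fragments, or 0.0682, 0.124 and 0.0830 FPKM, which is at least 4.58 times a floor of 3 fragments over the shRNA-NC group and did not pass on the log2(FPKM + 1) scale (0.13, adjusted p = 0.815, limma). With the cytokines added it was 0.425, 4.25 and 0.458 FPKM in shRNA-NC and 9.29, 9.14 and 10.99 FPKM in shRNA-*Ddx5* cells, again without overlap. The rise with cytokines was at least 85.3-fold in shRNA-NC cells, set against that floor, or at least 22.0-fold without replicate 2, and 107-fold in shRNA-*Ddx5* cells (counting interval 61.7 to 199).

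The knockdown mean of *Mmp13* with cytokines was 5.73 times the control (log2 difference 2.28, standard error 0.38, adjusted p = 0.000585, limma), and 22.2 times without replicate 2 of shRNA-NC with cytokines (2.90, adjusted p = 3.2e-08, limma). The cytokine difference in shRNA-NC cells (1.15, adjusted p = 0.0373, limma) was lost without any 1 of the 3 shRNA-NC medium libraries (0.0729 to 0.0827), without shRNA-*Ddx5* replicate 3 in medium (0.051) or any shRNA-*Ddx5* library with cytokines (0.05003 to 0.0514), with no filter (0.0976) and with only the libraries compared (0.123), and it held without replicate 2 of shRNA-NC with cytokines (0.53, adjusted p = 0.00308, limma). Some other markers of the cell types that make *Mmp13* moved with the knockdown. The 4 hypertrophic markers summed to 0.649 to 1.29 FPKM in shRNA-NC and 14.3 to 17.4 FPKM in shRNA-*Ddx5* medium libraries, and to 0.0712 to 1.503 and 12.1 to 14.7 FPKM with cytokines, most of it *Alpl*, with *Col10a1* at most 0.301 FPKM in every library. The 3 osteoblast markers summed to 2.27 to 3.07, 25.5 to 30.6, 0.460 to 1.17 and 4.50 to 5.39 FPKM in the same order, most of it *Sp7*, with *Bglap* at 0 in shRNA-NC medium. The mean of *Ihh* was lower with the knockdown, at 0.0430 and 0.0326 FPKM in medium and 0.0240 and 0.0132 FPKM with cytokines. *Dmp1* was at 0.00523 and 0.0621 FPKM in medium and at 0.0460 and 0 FPKM with cytokines. The part of these markers in the *Mmp13* result was not tested.

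*Mmp10*, stromelysin 2, had no fragment in any of the 6 medium libraries. The values under cytokines were 0.104, 1.54 and 0.491 FPKM in shRNA-NC and 0.872, 0.979 and 1.25 FPKM in shRNA-*Ddx5* cells, so the highest single value was in the control. The rise was at least 23.0-fold in shRNA-NC cells, or at least 9.61-fold without replicate 2, and at least 31.3-fold in shRNA-*Ddx5* cells against the floor of 3 fragments over the group. In the fit without a filter it passed in shRNA-*Ddx5* (log2 1.02, adjusted p = 0.0168, limma; lost without replicate 2 or 3 of either shRNA-*Ddx5* group, 0.0533 to 0.0715) but not in shRNA-NC cells (0.69, adjusted p = 0.0826, limma), where it passed with a pseudocount of 0.1 (0.0138), with voom (9.9e-05) and without replicate 1 of shRNA-NC with cytokines (0.0106), and the knockdown difference with cytokines did not pass (0.33, 95% interval -0.19 to 0.85) unless replicate 2 of shRNA-NC was left out (0.66, adjusted p = 0.00442, limma).

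The chromosome 9 proteases did not keep a fixed proportion to each other. With cytokines the *Mmp3* to *Mmp13* FPKM ratio was 2.37 to 2.39 in the 3 shRNA-*Ddx5* libraries and 3.38 to 4.26 in the 3 shRNA-NC libraries, replicate 2 included, so the groups did not overlap. The *Mmp3* to *Mmp10* ratio was 21.1 to 25.2 in shRNA-*Ddx5* and 3.97 to 16.7 in shRNA-NC cells, from as few as 3 *Mmp10* fragments in a library. With 3 libraries against 3, an exact permutation test cannot go below p = 0.1, and none was run on these ratios.

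**Figure D2:**
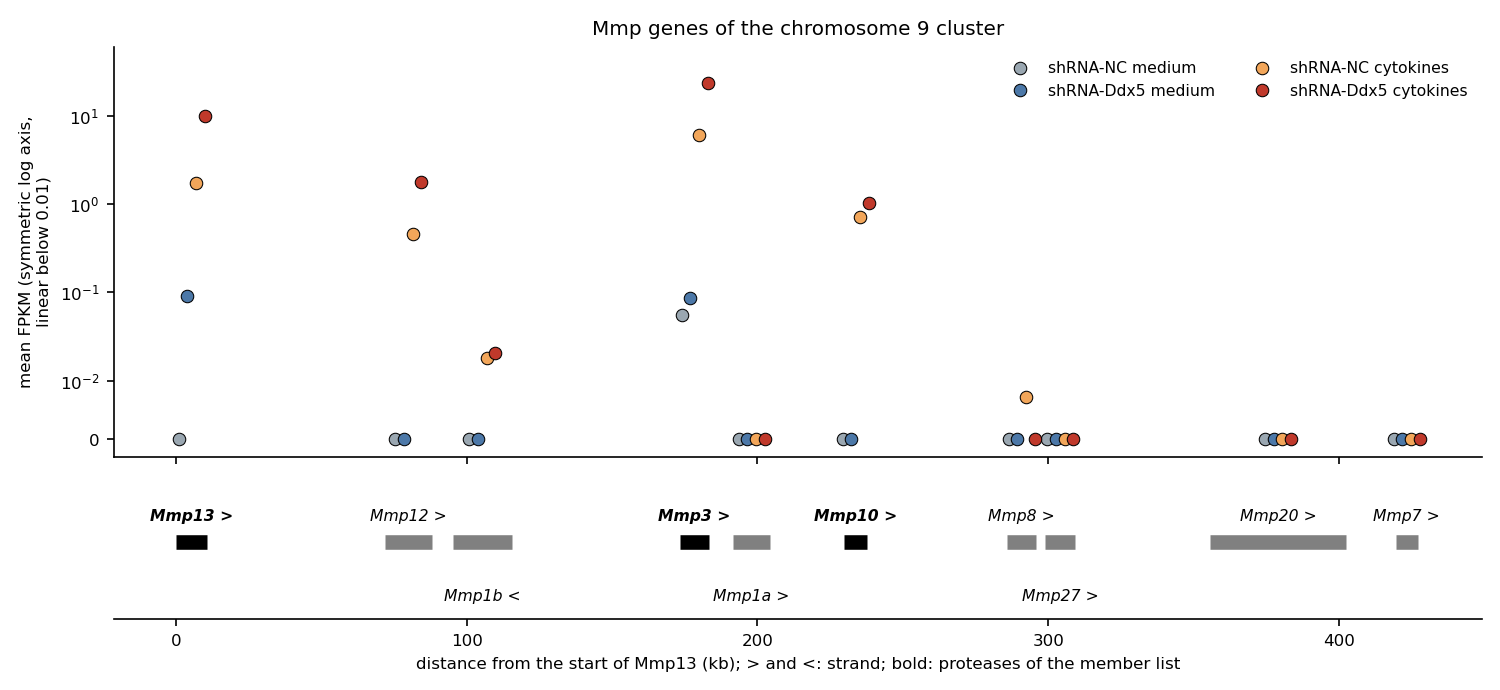
Mean FPKM of the 10 *Mmp* genes of the chromosome 9 cluster (upper y axis, symmetric log scale, linear below 0.01) against distance from the start of *Mmp13* in kb (x axis), with 1 point for each of the 4 groups, set side by side, and the gene bodies below. *Mmp13*, *Mmp12*, *Mmp3* and *Mmp10* lie higher with cytokines, while *Mmp1a*, *Mmp27*, *Mmp20* and *Mmp7* are at 0 in every library.

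Along the cluster the inducible genes were neighbours of genes that were not detected. *Mmp12*, macrophage elastase, lies between *Mmp13* and *Mmp3*, and it had no fragment in medium and 0.463 ± 0.0774 FPKM (SD, n = 3) with cytokines in shRNA-NC and 1.76 ± 0.565 FPKM in shRNA-*Ddx5* cells. The knockdown difference with cytokines passed (log2 0.90, adjusted p = 0.000200, limma). *Mmp12* reached 1 FPKM only in the shRNA-*Ddx5* libraries with cytokines. It thus passed the filter only through the higher group of that comparison, and the call is a description. *Mmp1b* and *Mmp8* reached at most 1 fragment per library, and the other 4 genes of the cluster had none.

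*Timp2*, which inhibits most MMPs and also takes part in the activation of pro-MMP2, was the most abundant member. Its FPKM in medium was 350.3, 378 and 385 in shRNA-NC and 619, 575 and 609.9 in shRNA-*Ddx5* cells. With cytokines it was 180.5, 216 and 194 in shRNA-NC and 344, 349 and 322 in shRNA-*Ddx5* cells. No pair of groups overlapped, although the highest shRNA-*Ddx5* value with cytokines (349 FPKM) lay just under the lowest shRNA-NC value in medium. Cytokines left 53.1% of the medium mean in shRNA-NC (log2 difference -0.91, standard error 0.09, adjusted p = 2.0e-05, limma) and 56.3% in shRNA-*Ddx5* cells (-0.83, adjusted p = 3.2e-05, limma). The knockdown mean was 1.62 times the control in medium (0.70, adjusted p = 9.8e-05, limma) and 1.72 times with cytokines (0.78, adjusted p = 4.2e-05, limma).

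*Timp3*, the inhibitor that stays bound to the matrix and also blocks aggrecanases of the ADAMTS family, was a member whose response to cytokines differed between the kinds of cell. Its FPKM in medium was 170.2, 182 and 199 in shRNA-NC and 148, 171 and 170.4 in shRNA-*Ddx5* cells, which overlapped. With cytokines it was 65.4, 68.5 and 58.7 in shRNA-NC and 132, 139 and 131 in shRNA-*Ddx5* cells. The shRNA-NC mean with cytokines was 34.9% of that in medium (log2 difference -1.50, standard error 0.09, adjusted p = 4.0e-07, limma), against 82.1% in shRNA-*Ddx5* cells (-0.28, adjusted p = 0.0423, limma). The latter call was lost without any 1 shRNA-*Ddx5* library with cytokines, replicate 2 or 3 of shRNA-*Ddx5* in medium or replicate 2 of shRNA-NC in medium (adjusted p 0.0597 to 0.145, limma), and with a replicate block (0.0593) or no filter (0.0592).

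The knockdown difference of *Timp3* was -0.17 in medium (95% interval -0.37 to 0.03, adjusted p = 0.147, limma), lower and called after quantile (-0.46, 0.00853) or sum scaling (-0.27, 0.0318), and 1.05 with cytokines (2.09 times the control, adjusted p = 7.3e-06, limma). The difference between them, tested as the interaction, was 1.22 (95% interval 0.94 to 1.51, adjusted p = 0.000359, limma). *Timp3* over *Mmp14* FPKM was 0.580 to 0.652 in the shRNA-NC libraries with cytokines and 1.11 to 2.17 in the other 9. Overlapping genes were low, with *Syn3* on the opposite strand at most 0.0465 FPKM and the long noncoding *LOC118567333* on the same strand at most 0.640 FPKM, and *Cep295nl*, which overlaps *Timp2*, was at most 1.48 FPKM.

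*Timp1*, a secreted inhibitor known as an inflammation-induced gene, was the only inhibitor higher with cytokines. Its FPKM in medium was 48.0, 47.5 and 29.8 in shRNA-NC and 137, 102 and 112 in shRNA-*Ddx5* cells. With cytokines it was 80.7, 112 and 87.9 in shRNA-NC and 283, 297 and 276 in shRNA-*Ddx5* cells. Unstimulated shRNA-*Ddx5* cells and stimulated shRNA-NC cells overlapped, and every other pair of groups was separate. Cytokines raised it 2.24-fold in shRNA-NC (log2 difference 1.16, standard error 0.18, adjusted p = 0.000633, limma) and 2.43-fold in shRNA-*Ddx5* cells (1.29, adjusted p = 0.000301, limma). The knockdown mean was 2.81 times the control in medium (1.49, adjusted p = 7.6e-05, limma) and 3.05 times with cytokines (1.61, adjusted p = 4.1e-05, limma). The interaction was 0.12 (95% interval -0.45 to 0.69). *Syn1*, which overlaps *Timp1* on the opposite strand, was at 0.354 to 1.56 FPKM.

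The mix of inhibitors therefore changed with each condition, as the plot of shares shows. *Timp1* made up 7.03% of the summed inhibitor FPKM in shRNA-NC and 13.3% in shRNA-*Ddx5* cells in medium, and 26.2% and 37.6% with cytokines. *Timp3* was more abundant than *Timp1* in all 6 medium libraries, at *Timp1* to *Timp3* ratios of 0.150 to 0.925, and less abundant in all 6 cytokine libraries, at 1.23 to 2.15. Among the proteases, *Mmp3* and *Mmp13* went from 0.0506% and 0.0563% of the summed FPKM in shRNA-*Ddx5* medium to 13.3% and 5.58% with cytokines.

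**Figure D3:**
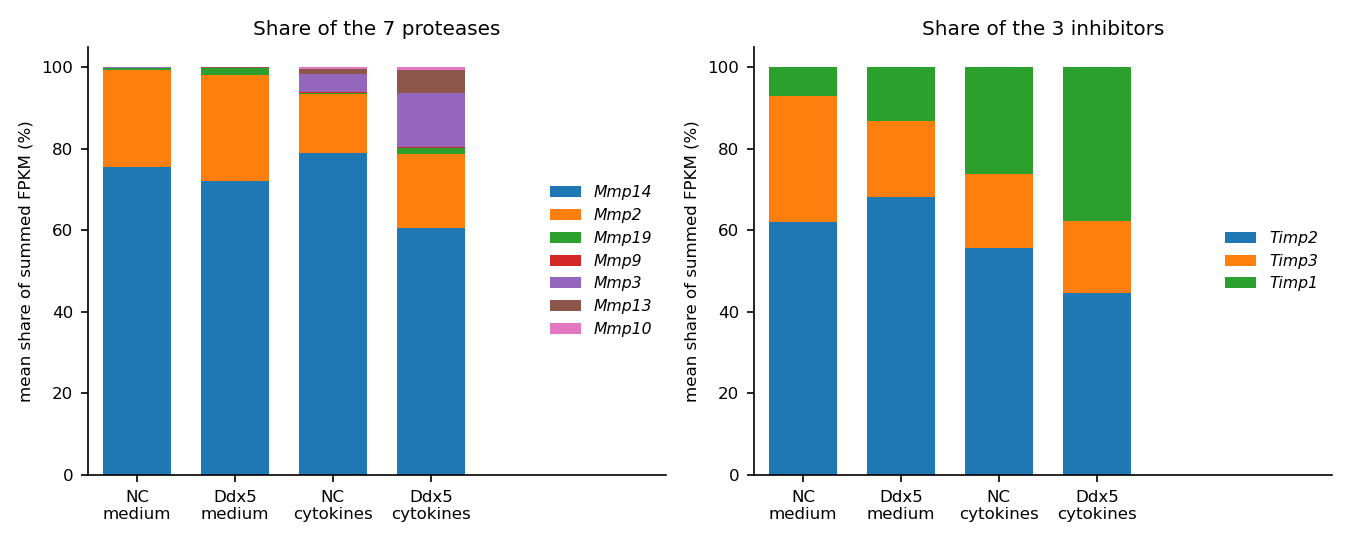
Mean share, in percent, of each gene in the summed FPKM of the 7 proteases (left) and of the 3 inhibitors (right) for the 4 groups (x axis). *Mmp14* takes 60.5% to 79.1% of the proteases, *Mmp3* and *Mmp13* are visible with cytokines, and the share of *Timp1* is largest in shRNA-*Ddx5* cells with cytokines.

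Counted over the members, cytokines in shRNA-NC cells raised 3 (*Timp1*, *Mmp3*, *Mmp13*) and lowered 3 (*Timp2*, *Timp3*, *Mmp2*) of the 8 tested, where 18.6% of all genes tested were called higher and 15.2% lower. In shRNA-*Ddx5* cells the calls fell on the same 6 genes in the same directions, against 13.5% of genes higher and 13.5% lower. The knockdown raised 4 of 8 in medium (*Timp1*, *Timp2*, *Mmp2*, *Mmp19*) and lowered none in the reported fit, against 25.3% higher and 21.7% lower. With cytokines it raised 7 of 8, all but *Mmp14*, and lowered none, against 23.5% higher and 22.1% lower. Since *Mmp3*, *Mmp13* and *Mmp19* could pass the filter only where they were high, these counts over tested members are a description. The median log2 difference of the 8 was -0.17, -0.15, 0.34 and 1.19 in these 4 contrasts, beside 0.02, 0.00014, 0.03 and 0.01 over all genes tested. These medians have the same limit and are a description too. They leave out *Mmp9* and *Mmp10*, whose knockdown differences with cytokines were 0.25 and 0.33 in the fit without a filter. The contrasts share groups and are not independent.

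The interaction, which sets the knockdown difference with cytokines against that in medium, was positive and called for *Timp3* and *Mmp13* and for no other member of the 8, where 3.46% of genes were called with a positive and 4.75% with a negative interaction. For *Mmp13* it was 2.15 (95% interval 0.97 to 3.34, adjusted p = 0.0330, limma). With *Mmp13* at or near 0 fragments in medium, the scale sets its medium difference near 0, so this value largely restates the knockdown difference with cytokines (2.28) and does not show that the knockdown acted differently in the 2 conditions. With precision weights on fragment counts it was 0.01 (adjusted p = 0.997, limma-voom), and it was lost with a pseudocount of 0.1 (0.169), with no filter (0.0804) and without any 1 library but replicate 2 of shRNA-NC with cytokines (adjusted p 0.0505 to 0.0840, limma). For *Mmp3*, to which the same limit applies, the interaction was 2.25 (95% interval 0.72 to 3.78, adjusted p = 0.0740, limma), and 3.06 without replicate 2 of shRNA-NC with cytokines (adjusted p = 2.0e-06, limma).

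**Figure D4:**
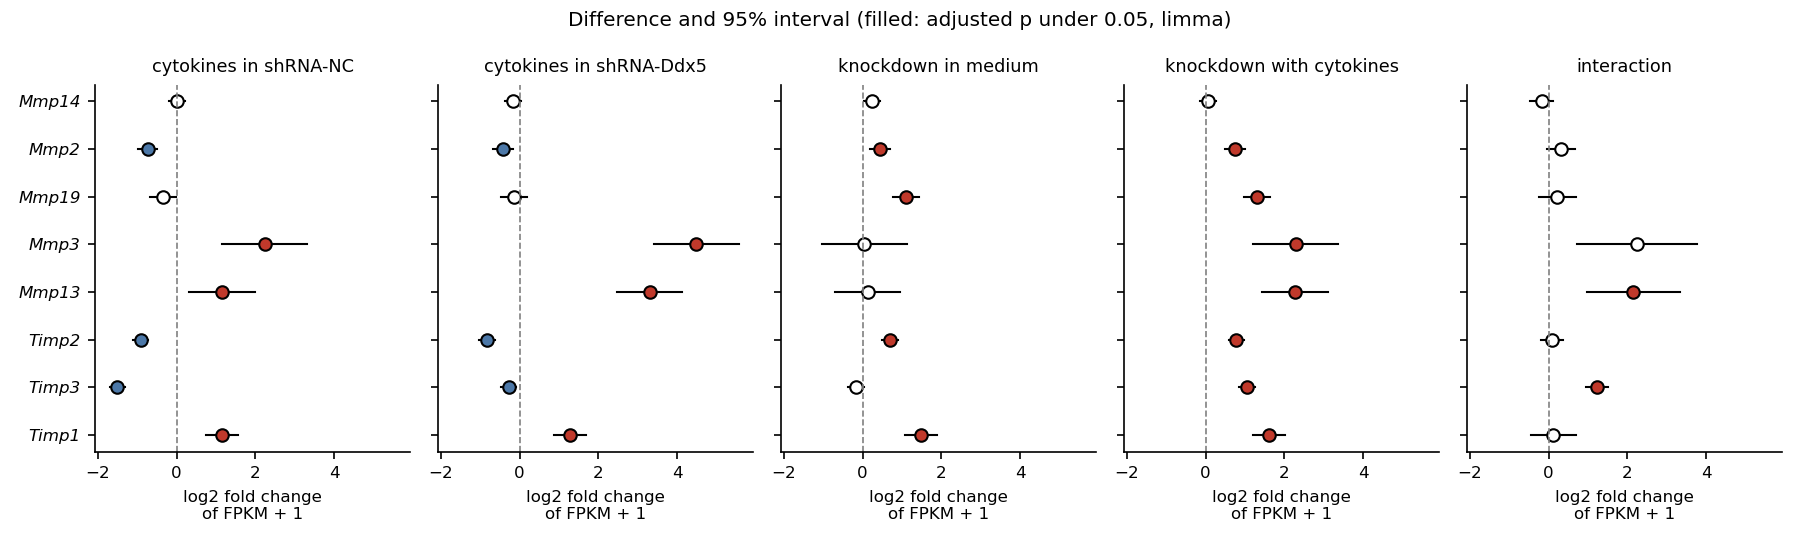
Difference of log2(FPKM + 1) (x axis) with its 95% interval for the 8 members tested (y axis) in the 4 contrasts between groups and the interaction, with filled points where the adjusted p was under 0.05 (limma, n = 3 per group). The knockdown with cytokines gives 7 filled points above 0, and the interaction gives 2, *Mmp13* and *Timp3*.

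The protease to inhibitor balance was taken as the summed FPKM of the 7 proteases over that of the 3 inhibitors in each library, as a value without a test. It was 0.236, 0.234 and 0.210 in shRNA-NC and 0.202, 0.180 and 0.184 in shRNA-*Ddx5* cells in medium. With cytokines it was 0.364, 0.374 and 0.366 in shRNA-NC and 0.229, 0.226 and 0.241 in shRNA-*Ddx5* cells. The 3 shRNA-NC libraries with cytokines thus lay above the other 9. Their protease sum, at 131 ± 15.7 FPKM (SD, n = 3), was near the 135 ± 6.89 FPKM of shRNA-NC in medium, while the inhibitor sum was 355 ± 37.0 against 597 ± 24.6 FPKM. In shRNA-*Ddx5* cells the protease sums were 167 ± 15.0 and 176 ± 1.51 FPKM and the inhibitor sums 882 ± 29.3 and 758 ± 27.9 FPKM without and with cytokines.

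Leaving out the most abundant member of either side changed this balance, in different ways. Without *Mmp14* it was 0.0562, 0.106 and 0.0693 in shRNA-NC and 0.0896, 0.0871 and 0.0983 in shRNA-*Ddx5* cells with cytokines, so that the knockdown difference turned from lower to higher on average and the groups overlapped. With only *Mmp3*, *Mmp10* and *Mmp13*, an alternative chosen after the data were seen, it was 0.00691, 0.0508 and 0.00850 in shRNA-NC and 0.0424, 0.0408 and 0.0529 in shRNA-*Ddx5* cells with cytokines, and at most 0.000219 in all 6 medium libraries. Without *Timp2* it was 0.813 to 0.851 in shRNA-NC and 0.407 to 0.432 in shRNA-*Ddx5* cells with cytokines, and the cytokine difference in shRNA-*Ddx5* cells turned from higher to lower, against 0.560 to 0.642 in medium. The shRNA-NC libraries with cytokines stayed highest, and the log2 knockdown difference with cytokines went from -0.67 to -0.98.

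**Figure D5:**
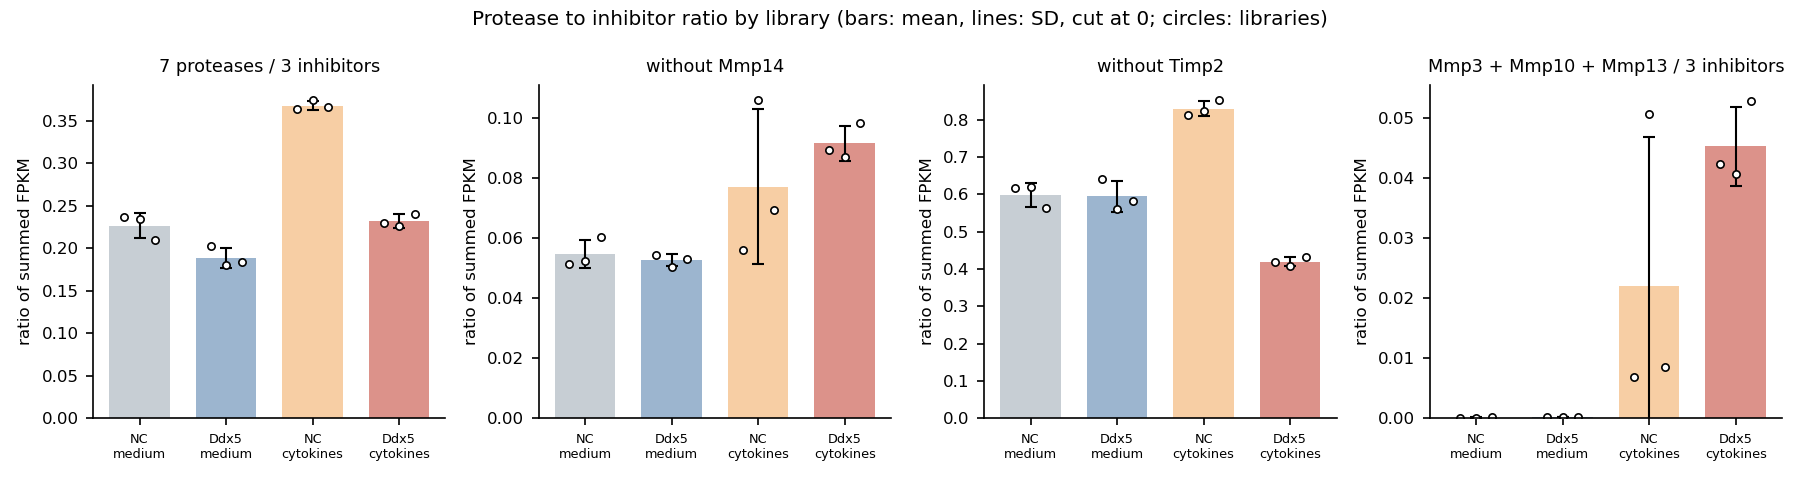
Ratio of summed protease to summed inhibitor FPKM (y axis) in the 4 groups (x axis) for all 10 members, without *Mmp14*, without *Timp2*, and for *Mmp3*, *Mmp10* and *Mmp13* alone, with bars for the mean, lines for the SD (cut at 0) and circles for libraries. shRNA-NC with cytokines is highest in the first panel at 0.364 to 0.374, while in the last panel its libraries spread from 0.00691 to 0.0508.

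Of the 17 other *Mmp* and *Timp* genes, 4 passed the filter and 4 had no fragment in any library. *Mmp11*, stromelysin 3, which unlike most MMPs leaves the cell already active, was the most abundant of them, at 26.0 ± 5.72 (SD, n = 3) and 25.6 ± 3.79 FPKM in shRNA-NC and shRNA-*Ddx5* medium and 15.7 ± 2.82 and 13.8 ± 0.496 FPKM with cytokines, and it fell with cytokines in each kind of cell (adjusted p = 0.00958 and 0.00347, limma). *Mmp16*, another membrane-type protease, rose with cytokines in shRNA-NC cells from 6.34 ± 0.617 to 9.66 ± 0.867 FPKM (adjusted p = 0.00868, limma). In shRNA-*Ddx5* cells it was at 6.52 ± 1.17 and 7.55 ± 1.15 FPKM, which overlapped. With cytokines every shRNA-*Ddx5* library lay below every shRNA-NC library, a difference that was not called. *Mmp28* passed in no contrast, at 1.55 to 1.96 FPKM on average.

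Genes that activate the proteases or clear them were read from a list of 18, of which 10 were tested. With cytokines 4 were higher and 1 lower in shRNA-NC and 4 and 3 in shRNA-*Ddx5* cells, and with the knockdown 3 were higher and 2 lower in medium and 3 and 3 with cytokines, against the shares of all genes given above (25.3% and 21.7% in medium, 23.5% and 22.1% with cytokines for the knockdown), near which the knockdown counts lie. *Plau*, urokinase, which makes the plasmin that cuts pro-MMPs, was at 5.46 ± 0.669 (SD, n = 3) and 19.3 ± 0.915 FPKM in medium and 13.7 ± 1.96 and 10.8 ± 0.539 FPKM with cytokines in shRNA-NC and shRNA-*Ddx5* cells, with an interaction of -1.97 (adjusted p = 5.7e-05, limma). *Plat*, tissue plasminogen activator, rose with cytokines in each kind of cell (log2 1.61 and 1.33). *Ctsl*, a cathepsin, rose with cytokines (0.39 and 0.58) and fell with the knockdown (-0.46 and -0.27). *Pcsk6*, a proprotein convertase, fell with the knockdown in each medium (-0.35 and -0.47).

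Of 17 transcription factors known at such promoters 15 were tested, and cytokines raised 12 and lowered 2 in each kind of cell, against 18.6% and 15.2% of all genes in shRNA-NC and 13.5% and 13.5% in shRNA-*Ddx5* cells. The median log2 difference of the list was 1.19 in shRNA-NC and 0.86 in shRNA-*Ddx5* cells. With cytokines the AP-1 genes *Jun* and *Fosl1* were lower in shRNA-*Ddx5* cells. *Jun* was at 41.4 ± 3.81 (SD, n = 3) FPKM in shRNA-NC and 14.9 ± 0.353 FPKM in shRNA-*Ddx5* cells (adjusted p = 2.6e-06, limma), and *Fosl1* at 47.5 ± 8.53 and 17.3 ± 0.580 FPKM (adjusted p = 0.00809, limma). *Cebpb*, an inflammatory regulator, was at 103 ± 24.9 and 270 ± 19.3 FPKM (adjusted p = 0.000184, limma), *Ets2*, an ETS factor, at 23.9 ± 3.29 and 57.3 ± 2.74 FPKM (8.8e-06), and *Nfkb1*, an NF-κB subunit, at 49.7 ± 4.06 and 70.9 ± 1.69 FPKM (0.00173). *Etv5*, another ETS factor, was at 8.49 ± 0.850 and 3.21 ± 0.291 FPKM (8.2e-06). Over the list the knockdown with cytokines raised 4 and lowered 7 of 15 (23.5% and 22.1% of all genes), and in medium it raised 3 and lowered 3 (25.3% and 21.7%).

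The tested genes whose log2(FPKM + 1) followed a member most closely over the 12 libraries, which share 4 groups, are given as a description. For *Mmp3* they were *Gbp9*, *Gbp6* and *Lcn2* (Pearson r 0.992, 0.991 and 0.990). For *Mmp13* they were *Gbp6*, *Serpina3g* and *Ism1* (0.997, 0.996 and 0.994). For *Timp1* they were *Med4*, *Psmd9* and *Abcf2* (0.984, 0.982 and 0.980).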

How the data were processed

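Poly(A) RNA of 12 ATDC5 libraries (3 per group, 1 µg input, 2 × 150 nt) was counted on genes by the authors with featureCounts, and the deposited values are FPKM. The submitters' notes also name HISAT2 2.0.5, featureCounts 1.5.0-p3, DESeq2 1.20.0 and mm10, while coordinates in the table follow GRCm39. The authors tested counts with DESeq2. Strandedness is not given in the sources used here. Multiplying FPKM by gene length gave whole fragments in each library (within 0.01 fragment for 100% of values), so fragments could be recovered, and the denominators were 0.957 to 1.08 times their sums.

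Groups came from the labels and doses from the study's methods. limma 3.58.1 (R 4.3.3; lmFit, contrasts.fit, eBayes with trend) was fitted to log2(FPKM + 1) with 4 group means, for 4 contrasts and the interaction, and p-values were adjusted by Benjamini-Hochberg over the 12368 genes with at least 1 FPKM in at least 3 libraries. The fit was tested on simulated data. The study describes its replicates as biologically independent, and the labels only number them. A floor of 3 fragments, like the counting intervals (95%), covers counting error only. The members and lists were chosen with earlier results of these data known. Named were the members, other *Mmp* and *Timp* genes that passed the filter, list genes called in at least 3 of 4 contrasts (at most 6 per list), and the 3 nearest genes of *Mmp3*, *Mmp13* and *Timp1*. Alternatives were another pseudocount, other filters, quantile and sum scaling, voom, eBayes without trend, only the libraries compared, a replicate block and each library left out. Figures were drawn with matplotlib 3.10.9.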

Additional observations from a re-analysis of the deposited data

Results flagged for a closer look

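The interaction, knockdown with cytokines against knockdown in medium, passed the threshold for 2 members. For *Timp3* the knockdown difference with cytokines exceeded that in medium by 1.22 (log2, standard error 0.13, adjusted p = 0.000359, limma), and the call held in every fit that left out a library. For *Mmp13* the same difference was 2.15 (standard error 0.54, adjusted p = 0.0330, limma). It was 1.84 without replicate 1, 2.78 without replicate 2 and 1.85 without replicate 3 of shRNA-NC with cytokines, and only the second of these remained called (adjusted p = 2.1e-06, limma). It was lost with a pseudocount of 0.1 (adjusted p = 0.169), with no filter (0.0804) and with voom (0.01, adjusted p = 0.997). *Mmp13* had 0 fragments in each shRNA-NC and 3 to 6 in each shRNA-*Ddx5* medium library, so on the log2(FPKM + 1) scale the value lies close to the knockdown difference with cytokines (2.28), and a difference in response between the conditions is not shown by it.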

How the results depend on the processing

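Each contrast of the 8 tested members was recomputed under the alternatives, with *Mmp9* and *Mmp10* in fits without a filter, which, like the balance of chromosome 9 proteases, were chosen after seeing the data. Of 1020 recomputed gene differences 948 kept direction and side of the threshold, 46 lost a call, 17 gained one and 9 reversed. Many of these settings, such as a left-out library outside the contrast, kept the difference itself and could only move its adjusted p. The 948 are therefore not so many separate checks of direction. Counts of called members for the 4 group contrasts stayed within 1.5 times, from 4 to 7. The interaction called 1 member in place of 2 with a pseudocount of 0.1, with no filter or with voom, and from 1 to 3 when a library was left out. The reversals were of small differences: *Mmp14* with cytokines in shRNA-NC (-0.25 with quantile scaling, -0.076 with sum scaling, -0.069 to 0.064 with a library left out), *Mmp14* with the knockdown in medium (-0.040, quantile) and with cytokines (-0.13, quantile, and -0.0055, sum), *Mmp3* with the knockdown in medium (-0.018, quantile) and the *Mmp9* interaction (-0.032, voom). The quantile value of *Mmp14* in shRNA-NC passed (adjusted p = 0.0339, limma).

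The log2 balance differences depended on how the balance was built. For cytokines in shRNA-NC the value of 0.70 became 0.90 with means of log2 values, 0.45 without *Mmp14*, 0.47 without *Timp2*, 0.96 with fragments and 7.63 with the chromosome 9 proteases alone. For cytokines in shRNA-*Ddx5* cells, 0.30 became 1.17, 0.80, -0.50, 0.49 and 7.81 in that order, and 0.22 with all *Mmp* and *Timp* genes. For the knockdown in medium, -0.26 became -0.38, -0.053, -0.012, -0.15 and 1.46. For the knockdown with cytokines, -0.67 became -0.11, 0.30, -0.98, -0.62 and 1.65, and -0.75 with all genes. The interaction of -0.40 became 0.27 with means of log2 values, 0.35 without *Mmp14*, -0.97 without *Timp2* and 0.18 with the chromosome 9 proteases alone. The cause was not tested, beyond what the left-out members show. Leaving out single libraries kept every sign.

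Replicate numbers are shared between groups. Deviations of libraries with the same number correlated from -0.39 to 0.45 (4 of 18 pairs over 0.1). Those of libraries with other numbers correlated from -0.38 to 0.38 (13 of 36), so no pairing was shown across all groups. Between the shRNA-NC and shRNA-*Ddx5* medium groups the same-number pairs were at 0.448, 0.0425 and 0.313, and the other pairs at -0.378 to 0.190. Over all genes the interaction calls were 1016, and 559 to 632 without any 1 shRNA-*Ddx5* library with cytokines, replicate 3 of shRNA-*Ddx5* in medium or replicate 2 of shRNA-NC in medium. With a replicate block the members called were 6, 5, 4, 7 and 2 in the 5 comparisons, in place of 6, 6, 4, 7 and 2. At this depth *Mmp3* and *Mmp10* in medium, at 0 to 3 fragments per library, allow no difference to be measured.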

Other observations

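Below the filter, other membrane-anchored proteases showed levels that the tests did not cover. *Mmp15* was at 0.139 to 0.251 FPKM in shRNA-NC and 0.0771 to 0.103 FPKM in shRNA-*Ddx5* medium libraries, and at 0.125 to 0.272 and 0.0291 to 0.0840 FPKM with cytokines. *Mmp17* was at 0.121 to 0.191 and 0.0431 to 0.0774 FPKM in medium and 0.130 to 0.166 and 0.0395 to 0.0781 FPKM with cytokines. Both were without overlap between shRNA-NC and shRNA-*Ddx5* cells in each medium, from 2 to 25 fragments per library. *Mmp23* and *Mmp25*, also below the filter, overlapped in each medium. The share of all genes without such overlap was not counted. Of the genes tested, the knockdown was called higher for 25.3% and lower for 21.7% in medium, and for 23.5% and 22.1% with cytokines. *Mmp24* went from 0 to 2 fragments per library in shRNA-NC medium to 8 to 10 with cytokines, and was at 4 to 7 and 7 to 11 in shRNA-*Ddx5* cells. Unlike *Mmp15* and *Mmp17*, it was higher with the knockdown in medium, at means of 0.0715 and 0.0141 FPKM in shRNA-*Ddx5* and shRNA-NC cells, without overlap. With cytokines these groups overlapped. *Timp4* had 5 fragments in all, in shRNA-*Ddx5* medium libraries.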
